A study of Mus musculus with 14 samples.

Results

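Ifitm1, Ifitm2 and Ifitm3 encode interferon-induced transmembrane proteins, and their transcripts were followed here across CD4+ T cells sorted by surface PSGL1 from mice with and without chronic graft-versus-host disease (cGVHD). The 3 genes were taken by symbol from the 25017 genes of the count table, because earlier results of these data had shown them at higher levels in PSGL1hi than in PSGL1lo cells. All 3 passed the filter on low counts, which left 13780 genes. IFITM proteins are small membrane proteins of the CD225 family that sit in the plasma membrane and in endosomes and lysosomes, and they hinder the fusion of enveloped viruses with these membranes. Their genes are classical targets of type I and type II interferon, and in mice they lie together in 1 cluster. In T cells they are also known to differ between activation and memory states, and antiviral protection of tissue-resident memory T cells by IFITM3 has been described.

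All recipients were BALB/c mice, and all received bone marrow of C57BL/6 (B6) origin that had been depleted of T cells. Recipients that also received donor splenocytes are called cGVHD, and those without them GVHD-free. Tissues were taken 30 days after the transplant, and CD4+ T cells of donor origin were sorted into PSGL1lo and PSGL1hi fractions. PSGL1 is P-selectin glycoprotein ligand 1, encoded by Selplg. The 7 groups hold 2 libraries each: GVHD-free spleen PSGL1lo, and the PSGL1lo and PSGL1hi fractions of cGVHD spleen, liver and lung. GVHD-free PSGL1hi cells are not analysed here, and the labels give neither the age of the mice nor the number of animals behind a library. No label ties the replicates to separate animals, so every p-value reflects library-to-library spread alone, which may be technical. Levels are in CPM, that is, counts divided by the library's total and put on one common scale, with totals adjusted by TMM, which assumes that most genes do not differ.

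The libraries held 13222005 to 33532595 counts, and the floor of 3 counts, the most that a count of 0 leaves room for, equals 0.0859 to 0.224 CPM, for counting error only. In the labels the library numbers of spleen form a run of their own, apart from those of liver and lung, so spleen against the other tissues cannot be told apart from this numbering. Cd4 averaged 1525 to 2629 CPM in every group, and Selplg was higher in each PSGL1hi group, at 503 against 259 CPM in spleen, 923 against 576 in liver and 960 against 420 in lung. Cd8a, which CD4+ T cells should lack, reached 95.8 ± 1.38 CPM (SD, n = 2) in liver PSGL1hi cells and 46.7 ± 0.779 in spleen PSGL1hi cells. In bulk RNA, fewer cells expressing a gene and less RNA per cell cannot be told apart.

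Interferon acts on its target genes through short promoter elements. Type I interferon works mainly through the interferon-stimulated response element (ISRE) and interferon-gamma mainly through the gamma-activated site (GAS). Promoter sequences are shown because the 3 genes moved together across the 7 groups while carrying different sets of these letters. They are from RefSeq, build GRCm38.p6, which is not the mm9 build of the counts. Each line gives the 100 bases just before the first annotated exon, 5′ to 3′ on the gene's own strand, and capitals mark a match to the core of the ISRE, GAAANNGAAA. Ifitm1 is on the plus strand at chr7:140967928-140968027, Ifitm2 on the minus strand at chr7:140955988-140956087 and Ifitm3 on the minus strand at chr7:141010771-141010870.
Ifitm1: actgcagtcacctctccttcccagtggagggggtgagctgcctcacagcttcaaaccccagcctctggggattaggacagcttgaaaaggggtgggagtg
Ifitm2: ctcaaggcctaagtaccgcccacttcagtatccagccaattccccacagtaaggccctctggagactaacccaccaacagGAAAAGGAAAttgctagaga
Ifitm3: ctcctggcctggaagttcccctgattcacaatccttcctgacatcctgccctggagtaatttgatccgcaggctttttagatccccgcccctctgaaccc

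Windows of 300 bases around each RefSeq gene start were searched on both strands for the ISRE core, GAAANNGAAA or TTTCNNTTTC, and for the GAS letters, TTCNNNGAA. Ifitm2 held 1 ISRE core, starting 46 bases before its RefSeq start. Ifitm3 held 2, starting at bases 3 and 20 of its transcribed sequence, with a GAS match at base 14 between them that overlaps the second core by 3 letters. That stretch lies on the minus strand at chr7:141010716-141010742, with the ISRE cores in capitals.
Ifitm3 start: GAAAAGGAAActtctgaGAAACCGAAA
The window of Ifitm1, around its RefSeq start, held neither motif, and any other start of its annotated transcripts was not searched. Of all 32851 such windows, 3.44% held at least 1 ISRE core, 0.23% held 2 or more, and 8.3% held a GAS match. Among antiviral interferon-stimulated genes, 11 of the 24 with a window held an ISRE core, as did 10 of 17 interferon-gamma-induced genes. A match is a run of letters and no measured site.

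Ifitm1, a form found mainly at the cell surface, spanned the widest range of the 3 on the log scale, though not in CPM. Its level was 2.93 and 2.15 CPM in the GVHD-free spleen PSGL1lo libraries and 4.77 and 4.05 CPM in cGVHD spleen PSGL1lo. In cGVHD spleen PSGL1hi cells it was 53.9 and 47.3 CPM. Liver PSGL1lo cells had 11.9 and 8.72 CPM, and liver PSGL1hi cells 169 and 180.0 CPM. All PSGL1hi libraries of spleen and liver thus lay above all PSGL1lo libraries of the same tissues. Lung PSGL1lo cells had 37.5 and 53.9 CPM, and lung PSGL1hi cells 216 and 263 CPM. The lung PSGL1lo libraries overlapped those of spleen PSGL1hi, and these were the only neighbours in the order of group means whose libraries overlapped.

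Ifitm2, a form found mainly in endosomes and lysosomes, kept a steadier distance between the fractions. It was at 7.62 and 7.09 CPM in GVHD-free spleen PSGL1lo, 15.3 and 13.4 CPM in cGVHD spleen PSGL1lo and 61.9 and 65.9 CPM in cGVHD spleen PSGL1hi cells. In the liver its level was 46.4 and 40.5 CPM in PSGL1lo and 196 and 198 CPM in PSGL1hi cells. In the lung it was 61.6 and 67.8 CPM in PSGL1lo and 258 and 268 CPM in PSGL1hi cells. The order of groups was that of Ifitm1, except that lung PSGL1lo and spleen PSGL1hi cells, whose libraries overlapped, changed places.

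Ifitm3, the member best known for restricting influenza virus in endosomes, had the narrowest range on both scales. Its level was 12.8 and 9.96 CPM in GVHD-free spleen PSGL1lo, 14.1 and 13.1 CPM in cGVHD spleen PSGL1lo and 34.4 and 33.9 CPM in cGVHD spleen PSGL1hi cells. Liver PSGL1lo cells had 27.0 and 18.8 CPM, and liver PSGL1hi cells 88.8 and 93.5 CPM. Lung PSGL1lo cells had 23.8 and 31.4 CPM, overlapping liver PSGL1lo, and lung PSGL1hi cells 107 and 113 CPM. For each of the 3 genes the highest group was lung PSGL1hi, followed by liver PSGL1hi, and the lowest was GVHD-free spleen PSGL1lo.

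**Figure D1:**
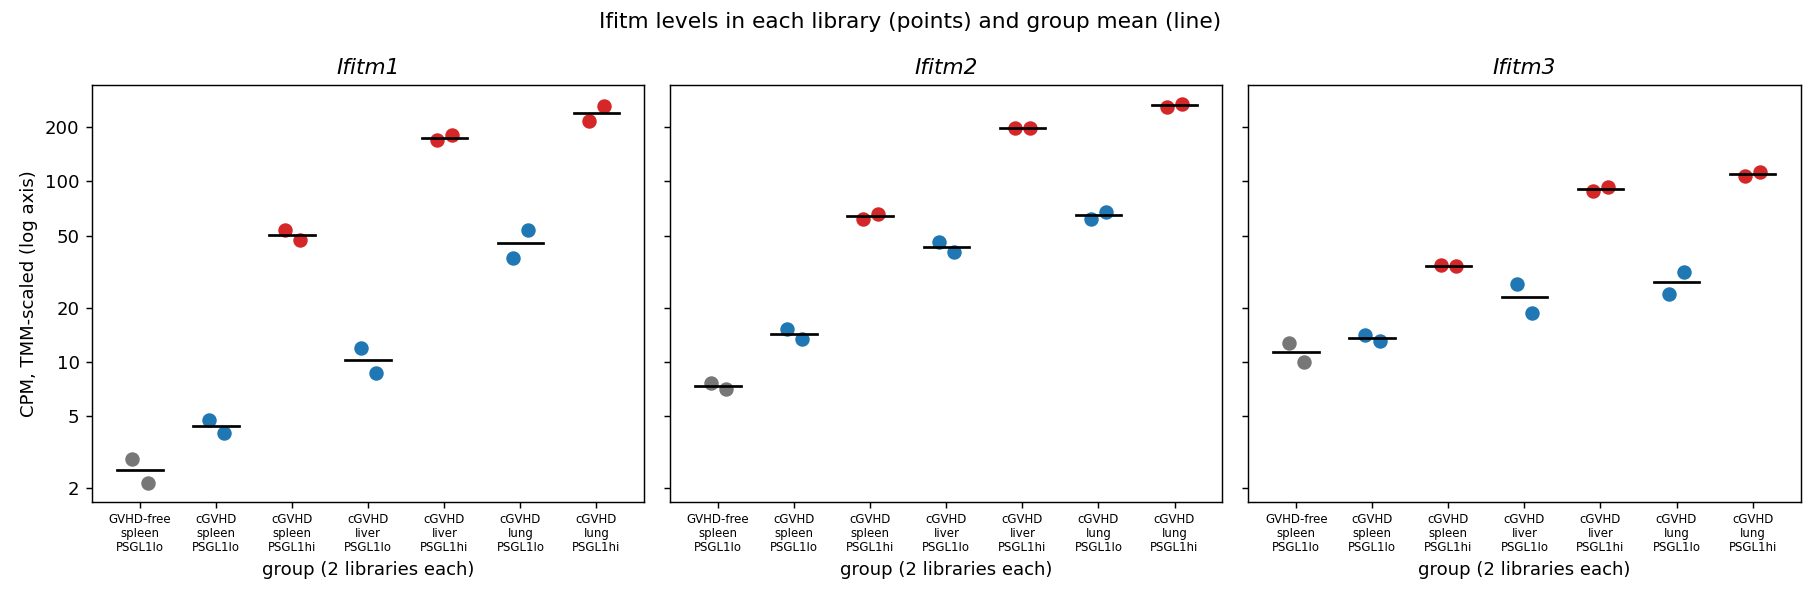
Level of Ifitm1, Ifitm2 and Ifitm3 in TMM-scaled CPM on a log axis (y) in each of the 7 groups (x), with 2 libraries as points and their mean as a line; grey is GVHD-free, blue PSGL1lo and red PSGL1hi. In each tissue both PSGL1hi libraries lie above both PSGL1lo libraries for all 3 genes, and Ifitm1 in lung PSGL1lo cells (37.5 and 53.9 CPM) lies with spleen PSGL1hi cells (47.3 and 53.9 CPM).

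The mix of the 3 transcripts also differed between groups. Ifitm3 held 53.4% of the 3 genes' summed CPM in GVHD-free spleen PSGL1lo cells and 17.9% in lung PSGL1hi cells. Ifitm1 held 11.9% to 13.6% in the PSGL1lo groups of spleen and liver. Its share was 34.01% ± 2.65, 37.7% ± 0.637 and 39.0% ± 2.57 (SD, n = 2) in PSGL1hi cells of spleen, liver and lung. Lung PSGL1lo cells, at 32.8% ± 3.32, were close to the PSGL1hi groups in this share. Ifitm2 held between 34.8% and 57.0% in every group. Per kilobase of annotated transcript, the level in lung PSGL1hi cells was 402 CPM for Ifitm2 and 162 CPM for Ifitm3. For Ifitm1 it was 271 to 428 CPM, depending on which of its transcripts, 560 to 882 bases long, is used.

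The counts carry some uncertainty, since the sources used here do not say how reads matching several of these similar genes were counted. Of the 50-base stretches of Ifitm2's annotated exons, 48.5% also occur in transcripts of other annotated genes, 3.3% in another of the 3 genes. For Ifitm3 these shares are 10.02% and 5.56%, and for Ifitm1 5.02% and 1.42%.

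The difference between PSGL1hi and PSGL1lo cells is what the 3 genes were chosen by, so it is described here without a test. Ifitm1 was 11.5-fold higher in PSGL1hi cells in spleen (log2 ratio 3.52 ± 0.20 SE), 16.7-fold in liver (4.06 ± 0.16) and 5.25-fold in lung (2.39 ± 0.14). Ifitm2 was 4.47-fold, 4.52-fold and 4.07-fold higher in these tissues (log2 ratios 2.16 ± 0.10, 2.18 ± 0.08 and 2.02 ± 0.08). Ifitm3 was 2.51-fold, 3.95-fold and 3.98-fold higher (1.33 ± 0.16, 1.98 ± 0.14 and 1.99 ± 0.14). The ratios of Ifitm2 in the 3 tissues differed by 0.15 at most on the log2 scale. That of Ifitm1 was 1.67 smaller in lung than in liver, and that of Ifitm3 was 0.65 larger in liver than in spleen. These differences between tissues were not tested.

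Over all genes tested, 16.7% were called higher and 15.8% lower in PSGL1hi cells in spleen, 12.3% and 8.50% in liver, and 20.1% and 12.9% in lung, where a call is an adjusted p under 0.05 in edgeR's quasi-likelihood test. Ranked by log2 ratio from the highest among the 13780 genes, Ifitm1 was at place 69 in spleen, 50 in liver and 132 in lung. Ifitm2 was at 230, 293 and 225 and Ifitm3 at 643, 352 and 236. The genes were chosen by this contrast, so high places follow from the choice and are a description only.

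Markers of other cells differed between the fractions, in a direction that depended on the list and the tissue. Both CD8 T cell markers, Cd8a and Cd8b1, were called higher in PSGL1hi cells in each tissue, and their summed level was 77.5 to 77.6 CPM against 11.8 to 12.3 in spleen, 141 to 142 against 28.0 to 31.5 in liver and 28.5 to 30.6 against 12.1 to 12.4 in lung. Of 5 tested markers of NK cells, 5, 5 and 4 were called higher in spleen, liver and lung. The NK cell list summed to 191 to 192 against 78.6 to 81.2 CPM in spleen, 401 to 409 against 202.4 to 210.5 in liver and 391 to 407 against 204.1 to 229.5 in lung. Ncr1, 1 marker of this list, averaged at most 0.157 CPM in the cGVHD groups. In spleen 6 of 14 macrophage markers were called higher, with summed levels of 378 to 404 CPM in PSGL1hi and 177 to 191 CPM in PSGL1lo cells. In liver the macrophage sum was 34.01 to 47.3 against 26.0 to 48.9 CPM, and in lung 709 to 877 against 801 to 1206 CPM, with libraries of the fractions overlapping in both. Neutrophil sums overlapped in liver (123 to 177 against 136 to 263 CPM) and were 33.8 to 34.9 against 15.9 to 22.1 CPM in lung. Dendritic cell markers summed to 133 to 135 against 67.9 to 69.0 CPM in spleen, 66.5 to 67.9 against 46.9 to 53.6 in liver and 123 to 148 against 66.9 to 105 in lung. Of 8 tested, 4 were called higher and 1 lower in spleen, 1 and 2 in liver and 1 and 1 in lung. B and plasma cell markers summed to 49.8 to 55.9 against 20.3 to 22.1 CPM in spleen, where 2 of 8 were called higher and 2 lower, and those called in liver and lung, 1 and 2, were lower. Of 6 innate lymphoid and mast cell markers, 3 were higher and 2 lower in spleen, 2 and 0 in liver (25.3 to 28.3 against 9.22 to 11.8 CPM summed) and 3 and 1 in lung. Hepatocyte markers in liver summed to 17.5 to 22.6 against 43.9 to 51.2 CPM, with 3 of 5 called lower. Of 8 T cell markers, 0 were higher and 2 lower in spleen, 0 and 1 in liver and 1 and 4 in lung. Endothelium and stroma sums were lower in PSGL1hi cells in each tissue, while 2 of 8 markers were called higher in each and 2, 1 and 1 lower. The part of these markers in the Ifitm difference was not tested.

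**Figure D2:**
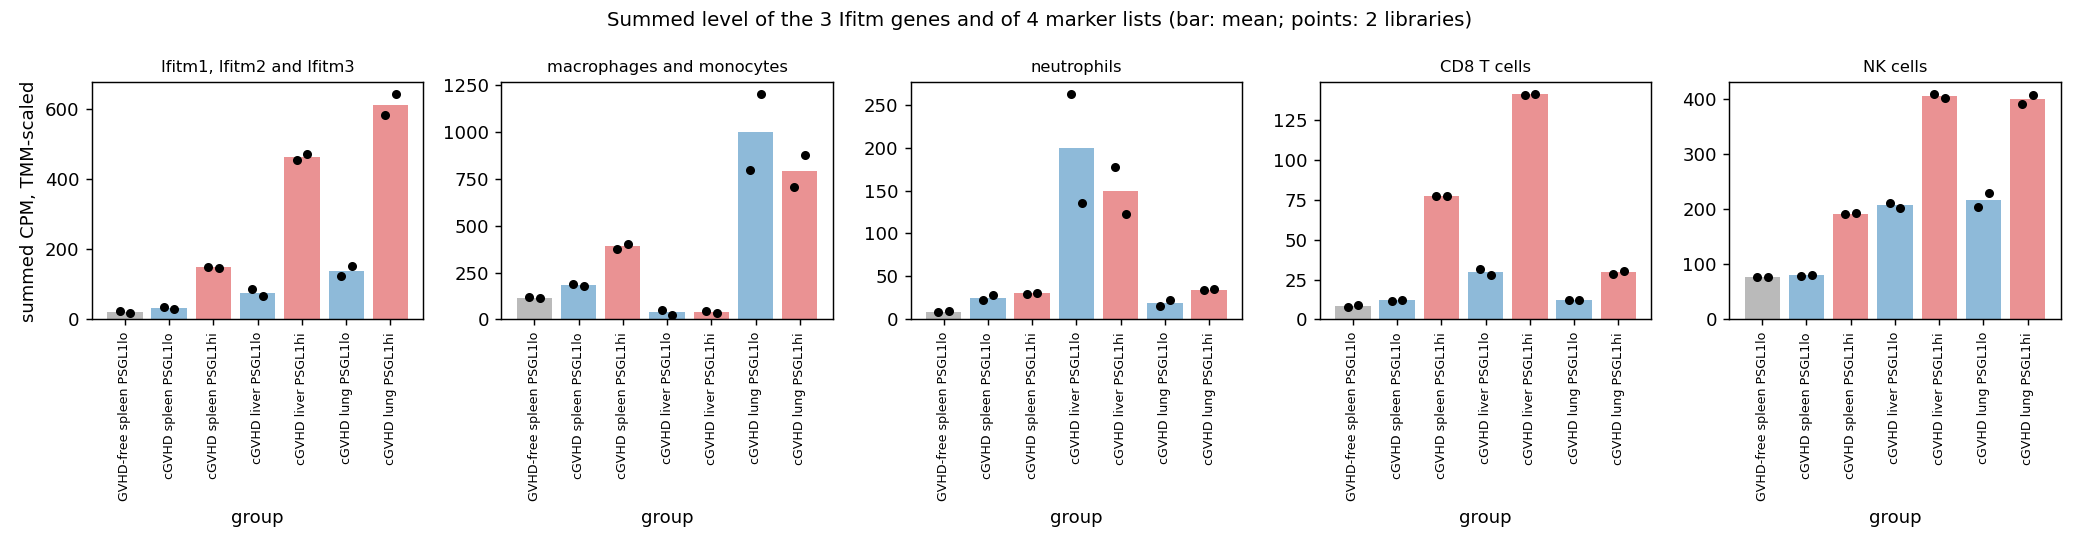
Summed TMM-scaled CPM (y) of the 3 Ifitm genes and of 4 marker lists in the 7 groups (x), with bars at the mean and points for the 2 libraries; each panel has its own scale from 0. The Ifitm sum is highest in lung PSGL1hi cells, the CD8 T cell sum in liver PSGL1hi cells (141 to 142 CPM) and the macrophage sum in lung PSGL1lo cells (801 to 1206 CPM). The NK cell and CD8 T cell sums, like the Ifitm sum, are higher in PSGL1hi than in PSGL1lo cells of each tissue.

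Other interferon-stimulated genes were called in both directions between the fractions. Of 33 antiviral interferon-stimulated genes tested, 2 were higher and 17 lower in PSGL1hi cells in spleen, 2 and 11 in liver and 6 and 7 in lung. Their median log2 ratios were -0.30, -0.23 and -0.03, beside medians over all genes of 0, 0.02 and 0.03. In spleen the GTPase Mx2 was at 1.44 ± 0.145 in PSGL1hi and 4.82 ± 0.446 CPM (SD, n = 2) in PSGL1lo cells (log2 ratio -1.74 ± 0.29 SE, adjusted p = 7.16e-05). The RNA-binding Ifit1 and Ifit3 were lower there as well (log2 ratios -0.79 and -0.85). In liver Oasl2, an oligoadenylate synthetase-like gene, fell by 1.06 ± 0.18 (adjusted p = 0.000215), and Ifit3 by 0.65. In lung Ifi27l2a was lower (log2 ratio -0.93) and Epsti1 higher, at 537 ± 7.99 against 307 ± 3.71 CPM (0.80 ± 0.08, adjusted p = 8.92e-08). The liver count of 11 lower genes was 6 without PSGL1hi replicate 1 and 5 without PSGL1hi replicate 2. In lung, the 6 higher genes were 3 without either PSGL1lo replicate and 2 without PSGL1hi replicate 2, and the 7 lower ones were 4 without PSGL1hi replicate 1.

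Genes known mainly as interferon-gamma targets, such as guanylate-binding proteins and antigen presentation genes, showed 2 higher and 7 lower of 22 in spleen, 0 and 6 in liver and 5 and 6 in lung. Cxcl10, a chemokine induced by interferon-gamma, was lower in PSGL1hi cells in each tissue, at 7.37 against 23.4 CPM in spleen, 8.08 against 46.6 in liver and 13.7 against 23.7 in lung (log2 ratios -1.66, -2.53 and -0.79; adjusted p = 8.06e-09, 1.07e-11 and 3.69e-05). The GTPase gene Iigp1 was lower as well (-0.55, -0.73 and -0.59). The 0 genes called higher in liver by edgeR were 1 by DESeq2, 2 with no filter on low counts and 2 at an unadjusted p under 0.05. The 6 lower ones in liver were 3 without either PSGL1hi replicate, and the 2 higher ones in spleen were 0 or 1 without any single library. In lung the 6 lower ones were 3 without PSGL1hi replicate 1.

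Upstream of these targets, the ligand Ifng was higher in PSGL1hi cells in each tissue, at 203 ± 12.3 against 162 ± 10.1 CPM in spleen, 360 ± 0.912 against 253 ± 9.29 in liver and 458 ± 23.8 against 299 ± 20.5 in lung (SD, n = 2; adjusted p = 0.00214, 2.54e-05 and 9.79e-07). It was the only interferon ligand of the 9 listed that passed the filter. The receptor subunit for interferon-gamma, Ifngr1, was higher in PSGL1hi cells by 0.74 ± 0.06, 0.83 ± 0.06 and 1.71 ± 0.06 on the log2 scale. Ifnar2, a receptor subunit for type I interferon, was lower by nearly the same amount in spleen, liver and lung (log2 ratios -0.66, -0.66 and -0.66). In lung the other subunit of that receptor, Ifnar1, was higher, at 193.6 against 142.3 CPM (log2 ratio 0.44, adjusted p = 6.59e-05). Of 20 receptor and signalling genes tested, 2 were higher and 12 lower in spleen, 2 and 8 in liver and 4 and 4 in lung. The liver count of 8 was 4 and 3 without PSGL1hi replicates 1 and 2 and 5 without PSGL1lo replicate 1, and the 4 lower genes in lung were 2 without PSGL1hi replicate 2.

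**Figure D3:**
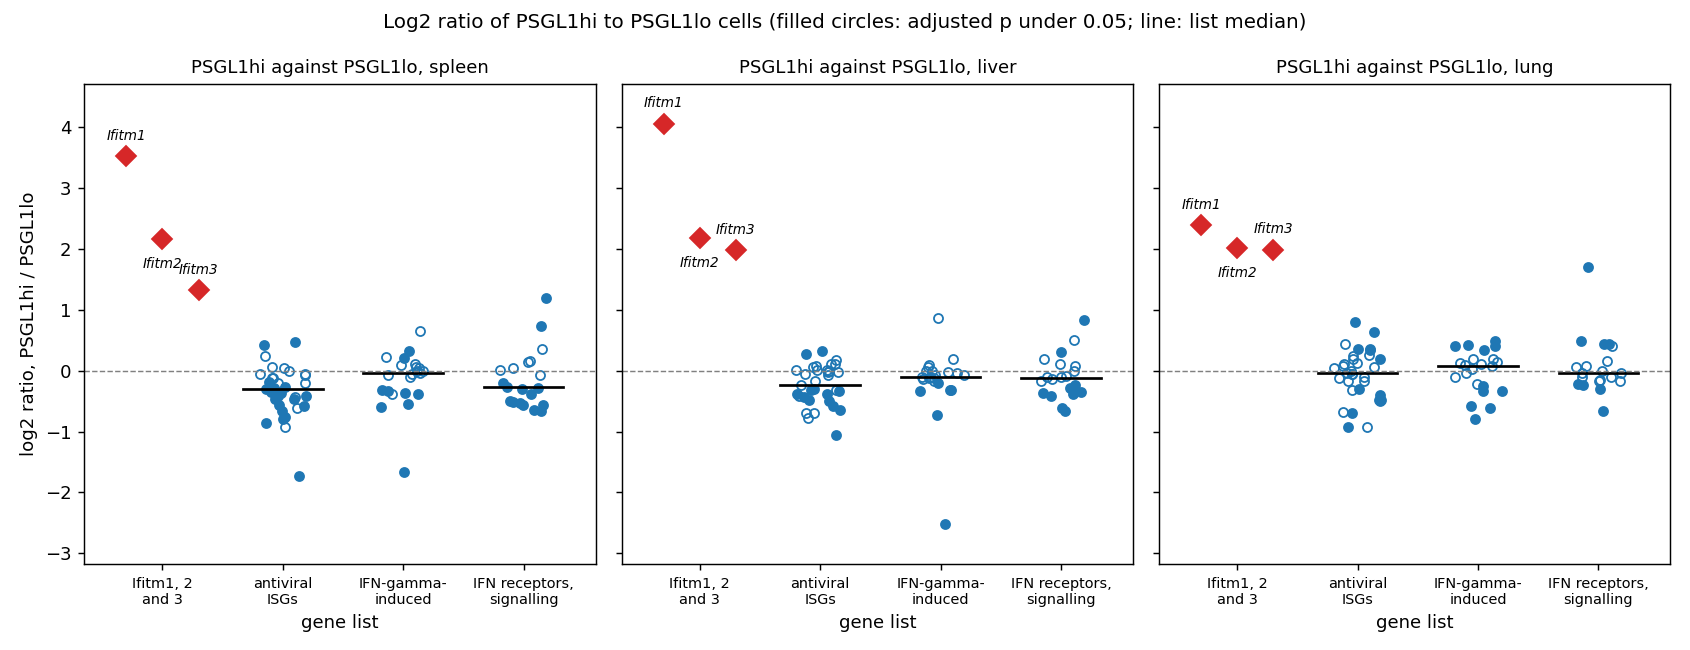
Log2 ratio of PSGL1hi to PSGL1lo cells (y) of the 3 Ifitm genes (red diamonds) and of 3 lists of interferon-related genes (circles, filled where called; black line, list median) in spleen, liver and lung. The Ifitm genes, which were chosen by this contrast, lie between 1.33 and 4.06, whereas the medians of the antiviral list lie at -0.30, -0.23 and -0.03.

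Among enzymes and partners of IFITM proteins, Nedd4 and Cd81 were called in opposite directions in each tissue. Nedd4, a ubiquitin ligase that promotes turnover of IFITM3, was at 74.7 ± 4.80 in PSGL1hi against 27.9 ± 1.40 CPM in PSGL1lo cells in spleen, 124 ± 0.0991 against 59.5 ± 8.63 in liver and 61.1 ± 2.50 against 19.7 ± 2.97 in lung (SD, n = 2; log2 ratios 1.42, 1.07 and 1.64). Cd81, a tetraspanin that binds IFITM1, was lower, with log2 ratios of -0.49 in spleen, -1.60 in liver and -2.27 in lung (adjusted p = 0.00239, 3.04e-09 and 9.33e-12). Of the 10 listed genes, 1 was higher and 2 lower in spleen, 3 and 1 in liver and 2 and 1 in lung.

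Neither of the other Ifitm genes tested, Ifitm6 and Ifitm10, was called higher in PSGL1hi cells in any tissue, also at an unadjusted p under 0.05. Ifitm10, which lies outside the cluster, was at 12.04 ± 1.63 against 13.4 ± 2.57 CPM (SD, n = 2) in PSGL1hi and PSGL1lo cells of spleen, with overlapping libraries. It was lower in PSGL1hi cells in liver (log2 ratio -0.40 ± 0.13 SE, adjusted p = 0.0289) and did not pass in lung (-0.32 ± 0.14, adjusted p = 0.0842). Ifitm6, a cluster gene, averaged 0.347 to 3.59 CPM over the groups. Its mean was 2.12 CPM in PSGL1hi against 1.25 CPM in PSGL1lo cells of spleen (log2 ratio 0.73 ± 0.53, adjusted p = 0.31) and 0.529 against 0.347 CPM in lung (0.61 ± 0.68, adjusted p = 0.539). In these 2 tissues its libraries did not overlap, as can happen without a difference at 2 libraries per group. Ifitm5, the bone-specific member, and Ifitm7 had at most 12 and 10 counts in a library and did not pass the filter.

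Neighbouring genes on chromosome 7 were compared with the cluster, taking the 5 nearest protein-coding genes on each side. Of these 10 genes 8 were tested, and 1 was higher and 2 lower in PSGL1hi cells in spleen, 2 and 1 in liver and 3 and 1 in lung. Psmd13, a proteasome subunit gene on the Ifitm5 side, was higher in each tissue, by 0.52, 0.25 and 0.38 on the log2 scale. Sigirr, an inhibitory receptor of the interleukin-1 receptor family on the Ifitm6 side, was lower in each (-0.25, -0.35 and -0.27). B4galnt4, next to Ifitm6, was lower in spleen (-0.66 ± 0.10) and higher in lung (0.41 ± 0.09). Nlrp6 was at 0.713 CPM or below in every one of these groups. Its mean was higher in PSGL1hi cells in each tissue, at 0.135 against 0 CPM in spleen, 0.713 against 0.0211 in liver and 0.359 against 0.0447 in lung. It was called in liver only (adjusted p = 0.0056), and no fold is given because its PSGL1lo means lay below the floor of 3 counts. Leaving Nlrp6 aside, no neighbour's log2 ratio exceeded 0.52, whereas the smallest of the 3 Ifitm genes was 1.33. The 3 Ifitm genes were chosen by this contrast and the neighbours were not, so this distance is a description only.

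**Figure D4:**
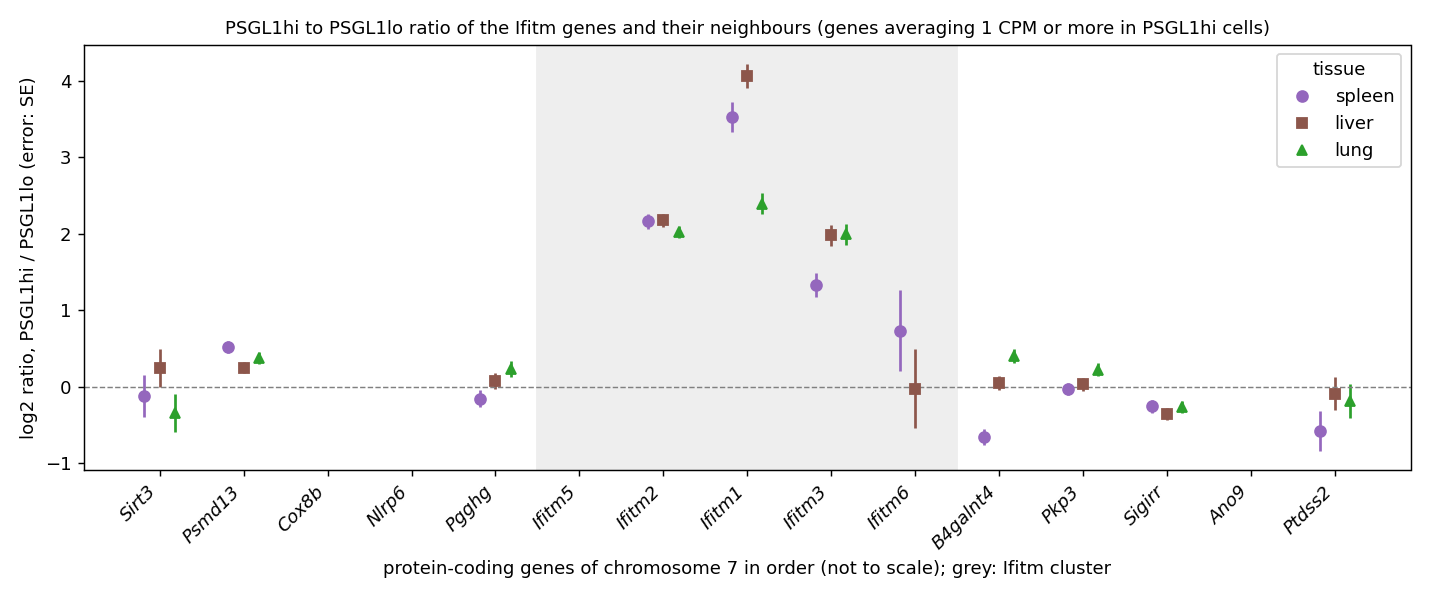
Log2 ratio of PSGL1hi to PSGL1lo cells with its SE (y) for the protein-coding genes around the Ifitm cluster in their order on the chromosome (x, not to scale), in spleen, liver and lung. Ifitm2, Ifitm1 and Ifitm3, which were chosen by this contrast, stand between 1.33 and 4.06. Neighbours averaging at least 1 CPM in PSGL1hi cells lie between -0.66 and 0.52.

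The comparison of cGVHD with GVHD-free spleen PSGL1lo cells was not used to choose the genes. It shares the cGVHD spleen PSGL1lo libraries with the contrast that was used. Only cGVHD recipients were given splenocytes beside the marrow depleted of T cells. Disease therefore cannot be told apart here from whether the sorted cells arose from marrow or came with splenocytes. Ifitm2 was higher in cGVHD cells, at 14.3 ± 1.33 against 7.35 ± 0.373 CPM (SD, n = 2), a log2 change of 0.96 ± 0.13 SE (adjusted p = 5.5e-06). Ifitm1 averaged 4.41 ± 0.506 against 2.54 ± 0.549 CPM and did not pass (0.77 ± 0.31, adjusted p = 0.0733). Its libraries did not overlap, as can happen without a difference at 2 libraries per group. Ifitm3, at 13.6 ± 0.667 against 11.4 ± 2.01 CPM, did not pass either (0.25 ± 0.18, adjusted p = 0.347). Thus 1 of the 3 genes was called, where 14.7% of all genes tested were higher and 12.8% lower. The call for Ifitm1 depended on the setting: it passed with no filter on low counts, with DESeq2 and when spleen libraries alone were fitted (adjusted p = 0.00183, 0.0444 and 0.0107).

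Interferon-gamma targets were mostly higher in cGVHD PSGL1lo cells, with 14 of 22 higher and 2 lower and a median log2 change of 0.37, beside 0.01 over all genes. Gbp6, a guanylate-binding protein gene, was at 101 ± 0.333 against 42.0 ± 3.18 CPM (SD, n = 2; log2 change 1.26 ± 0.11 SE, adjusted p = 6.65e-09). Antiviral genes went both ways, with 8 higher and 7 lower of 33. Epsti1 was 2.03-fold higher (1.02 ± 0.08) and Ifi44 fell by 2.05 ± 0.25. The 8 higher antiviral genes were 4 without cGVHD replicate 2. Ifng was 1.75-fold higher and Ifngr1 2.81-fold, and Ifngr2, the other subunit of its receptor, was lower (log2 change -1.14). Of 20 receptor and signalling genes 9 were higher and 6 lower, and leaving out single libraries gave 3 to 6 higher and 1 to 4 lower. Of 5 tested genes of the Ifitm and wider CD225 family, Ifitm10 was 2.2-fold higher in cGVHD (adjusted p = 3.54e-05), and Ifitm6 (log2 change -1.49, adjusted p = 0.0371) and Prrt2 (-0.96, adjusted p = 0.0329) were lower. Macrophage markers summed to 177 to 191 CPM in cGVHD and 116 to 118 CPM in GVHD-free cells, with 6 of 14 called higher and 1 lower, and 7 of 8 tested B and plasma cell markers were called lower. All 3 tested erythroid markers were higher (63.3 to 65.9 against 25.2 to 30.0 CPM summed), 2 of 12 neutrophil markers were higher (22.9 to 28.1 against 8.11 to 9.45 CPM summed), and of 8 dendritic cell markers 2 were higher and 5 lower. Their part in the Ifitm values was not tested.

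Lung was compared with liver within each fraction. These libraries also enter the contrast that chose the genes. Among PSGL1lo cells, Ifitm1 was higher in lung, at 45.7 ± 11.6 against 10.3 ± 2.26 CPM (SD, n = 2), a 4.36-fold difference (log2 change 2.12 ± 0.16 SE, adjusted p = 6.24e-10). Ifitm2 was 1.49-fold higher in lung PSGL1lo cells, at 64.7 ± 4.37 against 43.5 ± 4.17 CPM (0.57 ± 0.08, adjusted p = 1.43e-05). Ifitm3 overlapped between these groups, at 27.6 ± 5.41 against 22.9 ± 5.83 CPM (0.26 ± 0.14, adjusted p = 0.158). It passed without liver PSGL1lo replicate 1 (0.55, adjusted p = 0.00472) or without lung PSGL1lo replicate 1 (0.43, adjusted p = 0.0382), and was 0.03 at the lowest when another library was left out. So 2 of 3 genes were called higher in lung, where 19.6% of all genes were higher and 20.4% lower.

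Among PSGL1hi cells Ifitm1 and Ifitm2 were higher in lung as well. Ifitm2 was 1.34-fold higher in lung, at 263 ± 7.10 against 197 ± 1.23 CPM (SD, n = 2; log2 change 0.42 ± 0.08 SE, adjusted p = 0.000235). Ifitm1 was 1.37-fold higher, at 239 ± 32.9 against 175 ± 7.47 CPM (0.45 ± 0.13, adjusted p = 0.00753). That call was lost without lung PSGL1hi replicate 2 (0.30, adjusted p = 0.171) or liver PSGL1hi replicate 1 (0.41, adjusted p = 0.0718), and with DESeq2 (adjusted p = 0.0873). Ifitm3, at 110 ± 4.04 against 91.2 ± 3.28 CPM, did not pass (0.27 ± 0.13, adjusted p = 0.104), and it passed with no filter on low counts (adjusted p = 0.0279). Its libraries did not overlap, as can happen without a difference at 2 libraries per group. Over all genes 20.1% were higher and 18.3% lower in lung PSGL1hi cells.

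Most antiviral and interferon-gamma-induced genes had the opposite direction between these tissues. Among PSGL1lo cells, 24 of 33 antiviral genes were lower in lung and 1 higher, and 18 of 22 interferon-gamma-induced genes were lower and 2 higher. In the PSGL1hi fraction these counts were 22 and 3, and 14 and 4. Cxcl9 had the largest called change of the interferon-gamma-induced genes and was higher in lung (log2 changes 3.04 in PSGL1lo and 2.06 in PSGL1hi cells). Ifngr2, with the largest called change of the receptor and signalling genes, was also higher in lung (3.37 and 3.26). The 22 lower antiviral genes were 14 without lung PSGL1hi replicate 1, and the 1 higher gene among PSGL1lo cells was not called without any single library. Eif2ak2, the kinase that senses double-stranded RNA, was at 19.7 ± 0.170 in lung against 63.9 ± 11.1 CPM in liver PSGL1lo cells and 18.9 ± 1.77 against 68.8 ± 1.26 CPM in PSGL1hi cells (SD, n = 2; log2 changes -1.69 and -1.87). Ifng was higher in lung in both fractions, by 0.25 and 0.35 on the log2 scale, and so was Socs3, a feedback inhibitor of cytokine signalling, by 1.76 and 1.73. Irf8, a transcription factor of interferon responses, was lower in lung (-1.41 and -1.73), and Ifitm10 was about as much lower in PSGL1lo as in PSGL1hi cells (-1.12 and -1.04).

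Markers of tissue cells differed between lung and liver as well. Of 14 macrophage markers, 11 were called higher and 2 lower in lung in both fractions. Lyz2, an abundant macrophage transcript, averaged 799 and 630 CPM in lung PSGL1lo and PSGL1hi cells against 13.9 and 10.4 CPM in liver. Lung epithelium markers summed to 6.87 to 99.9 CPM in lung PSGL1lo and 41.7 to 52.8 CPM in lung PSGL1hi cells, and to 0.885 CPM or below in liver. Neutrophil markers were higher in liver, with 10 of 12 called in PSGL1lo and 8 of 12 in PSGL1hi cells. Of 8 endothelium and stroma markers, 5 were called higher and 1 lower in lung in both fractions. Their sums were 200.4 to 215.1 against 133.5 to 147.1 CPM in PSGL1lo and 145.2 to 152 against 104.3 to 111 CPM in PSGL1hi cells. Both CD8 T cell markers were called lower in lung in both fractions. Of 5 tested hepatocyte markers, 5 were called lower in lung PSGL1lo and 4 in lung PSGL1hi cells. The part of these markers in the difference of Ifitm1 and Ifitm2 was not tested.

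**Figure D5:**
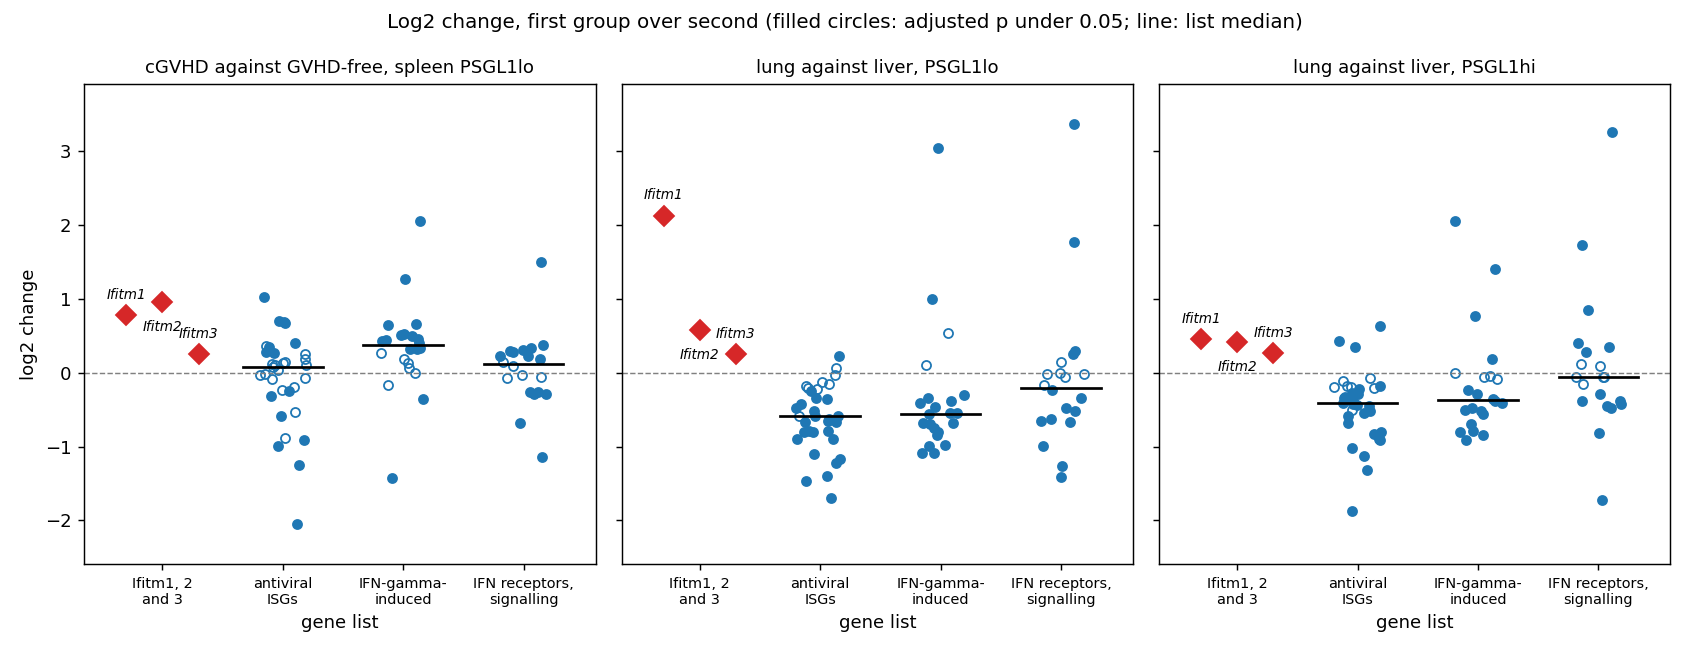
Log2 change (y) of the 3 Ifitm genes (red diamonds) and of 3 lists of interferon-related genes (circles, filled where called; black line, list median) for cGVHD against GVHD-free spleen PSGL1lo cells and for lung against liver in each fraction. Ifitm1 stands at 2.12 in lung against liver PSGL1lo cells, where the antiviral median is -0.59.

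Across the 14 libraries the 3 genes followed each other closely. Pearson's r of log2 CPM was 0.98 for Ifitm1 with Ifitm2, 0.97 for Ifitm1 with Ifitm3 and 0.97 for Ifitm2 with Ifitm3, as a description over libraries that share sort fraction, tissue and library series. Among all genes tested, those most like Ifitm1 were Cntn1 (r = 0.98), a cell adhesion molecule, Ifitm2, Nptn, Ybx3 and Wdr95. Those most like Ifitm2 were Acss2, an acetyl-CoA synthetase (r = 0.99), Krtcap2, Cox5a, Klrk1, which encodes the receptor NKG2D, and Arpc5. Ifitm3 was closest to Cntn1 (r = 0.98), Deptor, an inhibitor of mTOR, Wdr95, Nptn and Ifitm2. Klrk1, for example, averaged 5.37 CPM in GVHD-free spleen PSGL1lo cells and 7.22, 31.1 and 63.8 CPM in PSGL1lo cells of cGVHD spleen, liver and lung. In PSGL1hi cells of these tissues it was at 46.3, 125 and 189 CPM, so its group means had the order of those of Ifitm2. Klrk1 is also among the NK cell markers summed above. Ranked by Spearman's rho, 2 of these 5 genes stayed among the 5 most alike for Ifitm1, 0 for Ifitm2 and 1 for Ifitm3, so the names depend on the measure. Selplg itself correlated with Ifitm1, Ifitm2 and Ifitm3 at r = 0.90, 0.97 and 0.92.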

How the data were processed

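The authors deposited raw read counts for each gene from Kapa mRNA HyperPrep libraries (RNA by Qiagen RNeasy, per the labels). TopHat2 2.0.8, HTSeq and mm9 are named in the submitters' processing notes. The sources used here do not give the annotation, the strand setting or the handling of reads with several matches. The re-analysis used R 4.3.3 and edgeR 4.0.16: filterByExpr, TMM, 1 mean per group over 14 libraries (7 residual degrees of freedom, common coefficient of variation 7.35%), quasi-likelihood tests, 2-sided, Benjamini-Hochberg over 13780 genes, threshold 0.05. DESeq2 1.42.0 was an alternative. The model was tested on simulated data. The 3 genes and all lists were chosen with earlier results of these data known. Of each list, at most the 3 called genes with the largest log2 change per comparison were eligible to be named, and the 5 genes most correlated with each Ifitm gene (log2 CPM, prior count 2). Ifnar1 in lung was added outside this rule, beside Ifnar2. No replicate pair was as close as counting noise alone allows (chi-square over its degrees of freedom 2.97 to 18.6). Promoters, gene order and transcripts came from RefSeq and GENCODE tables matched by symbol.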

Additional observations from a re-analysis of the deposited data

How the results depend on the processing

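Of 222 alternative values for the comparisons and for likeness, 208 kept their direction and side of the threshold, or stayed within the spread or 1.5 times the count. For Ifitm1, cGVHD against GVHD-free cells passed with no filter on low counts (log2 change 0.78), DESeq2 (0.78) and spleen libraries alone (0.76), and single libraries left out gave 0.59 to 1.03. Lung against liver PSGL1hi cells did not pass for Ifitm1 with DESeq2 (0.48), and leaving out single libraries gave 0.30 to 0.58, while Ifitm3 passed with no filter (0.26). Lung against liver PSGL1lo cells gave 0.031 to 0.55 for Ifitm3 when single libraries were left out. The cause was not tested. Genes called between the liver fractions numbered 2866, 1552 and 1643 without PSGL1hi replicates 1 and 2, and 1552 to 3696 over the 4 libraries left out. By Spearman's rho, 2, 0 and 1 of the 5 genes most like Ifitm1, Ifitm2 and Ifitm3 stayed among the 5. Correlations of deviations between groups with the same replicate numbers were -0.06 to 0.08. They were highest between the fractions of lung (0.08) and of liver (0.07). With 2 replicates per group they cannot settle whether the samples are paired. The library names of liver and lung carry an A for replicate 1 and a B for replicate 2 in both fractions, so pairing is possible. With the replicate block 3700 genes were called between cGVHD and GVHD-free cells, against 3791 without it. No call changed for the 3 genes in the 3 tested comparisons. Depth limits Ifitm5, Ifitm7 and Nlrp6, at or near the floor.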
